A study of Rattus norvegicus with 9 samples.

Results

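Angiotensin II (Ang II) and extracellular potassium are the main stimuli of aldosterone secretion, and the response of rat adrenal zona glomerulosa cells to both, taken as 1 stimulated state, was compared with the unstimulated state. For every transcript the mean of the Ang II and the potassium tube of a cell preparation was set against the control tube of that preparation, which gave 3 pairs and used all 9 arrays of the series. The comparison covered all 31042 probe sets that were not array controls, of 31099 on the chip. The cells came fresh from rat adrenal glands by enzymatic and mechanical dispersion and carried no genetic change that the labels name. Control tubes were held in albumin-containing medium for 2 h at 37 °C, Ang II tubes were exposed to 100 nM of the peptide, and potassium tubes to 16 mM of the ion, for the same time. Each of 3 independent preparations supplied 1 tube and 1 Affymetrix Rat Genome 230 2.0 array to each of the 3 groups. The sources used here do not give the number of animals behind a preparation or their age, sex and strain.

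Ang II acts on zona glomerulosa cells through the AT1 receptor, which couples to phospholipase C, releases calcium from internal stores and activates protein kinase C. Raised potassium depolarises the same cells and lets calcium in through voltage-gated channels. Both routes lead to calcium and calmodulin-dependent kinases, to phosphorylation of CREB-family transcription factors and to induction of the NR4A nuclear receptors, factors that act on genes of cholesterol delivery and aldosterone synthesis. The comparison of the pooled stimuli with control asks which transcripts moved in the average of these states, and the difference between the stimuli shows which of them moved by like amounts.

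Signals are linear array intensities in arbitrary units. Fold changes are differences of log2(signal + 16), a scale that understates changes of dim probe sets, with the standard error (SE) of limma's fit. A probe set is called where its p-value, adjusted by Benjamini-Hochberg over all 31042 probe sets, was below 0.05. An exact sign-flip test of 3 pairs cannot give a two-sided p below 0.25, so single genes rest on the fit, which borrows its estimate of the spread from all probe sets.

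The array of control replicate 2 stood apart from the other 8. Its median signal was 173, against 128 to 144 elsewhere, 8.26% of its probe sets lay below a signal of 20 against 14.5% to 16.4%, and its median rank correlation with the other arrays was 0.923 against 0.948 to 0.954. Because every pooled value uses this array, many results are given with and without it. A gene given without this check may still depend on it. Markers of the labelled cell type were present, with mean control signals of 11700 for Dab2, 5359 for Wnt4 and 2782 for Agtr1b. Cyp17a1, an enzyme absent from the rat adrenal cortex, was near background with a mean control signal of 11.0. The other measured members of the zona fasciculata list were bright, with mean control signals of 28312 for Akr1b7, 4039 for Mrap and 3302 for Cyp11b1. The summed signals of that list ranged from 32774 to 39271 in the controls. Sums over different genes do not give the share of a zone, and the share of fasciculata cells was not tested. Transcripts of other cells were also present, such as the endothelial Kdr (7624), the fibroblast gene Dcn (5528) and haemoglobin Hbb (17735). None of the 44 measured markers of medulla, endothelium, macrophage, capsule fibroblast and smooth muscle, lymphocyte, red blood cell and adipocyte was called in limma's test, and 1 higher and 2 lower had an unadjusted p below 0.05. With 1 probe set for each of 14217 genes only 2.19% were called, so the absence of calls here does not show an unchanged cell mixture. The summed signals of these markers overlapped between the groups in every list, for example 17794 to 22543 for endothelium in the controls, 18416 to 22562 with Ang II and 19247 to 23680 with potassium. The summed zona glomerulosa markers ranged from 25649.9 to 28189 in the controls, 24887 to 27825 with Ang II and 32086 to 35789 with potassium, a list that includes the stimulus-responsive Nr4a2. Cyp11b2 and Mc2r were not analysed here.

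Stimulation raised more transcripts than it lowered. Of the 31042 probe sets 499 were called (1.61%), 339 of them higher (1.09%) and 160 lower (0.515%), while 4164 had an unadjusted p below 0.05. In RNA from whole tubes, fewer cells of a type and less RNA per cell cannot be told apart. The higher probe sets with a single gene symbol stood for 232 genes and the lower ones for 117. Most changes were small, since 141 higher and 63 lower probe sets passed 1.5-fold, 43 and 18 passed 2-fold, and 3 and 0 passed 4-fold. Of the calls, 486 were among the 18625 probe sets whose mean signal lay above the 40th percentile. All 6 stimulated tubes lay on the same side of their own control in 287 increases and 141 decreases. For 225 and 109 of the calls all 6 stimulated arrays lay beyond all 3 control arrays, an arrangement found in 1.89% (above) and 2.89% (below) of all probe sets. Without the preparation as a block 273 probe sets were called, 195 higher and 78 lower. Without control replicates 1, 2 and 3 the counts were 327, 183 and 275, and without all tubes of preparations 1, 2 and 3 they were 276, 153 and 297. All 499 probe sets kept their direction without control replicate 2, and 124 of the higher and 49 of the lower calls remained. The share of increases depends on the scaling. With each array centred on its median, which moved the median over all probe sets from -0.06 to 0.05, 409 were higher and 51 lower, so that 88.9% of the calls were increases in place of 67.9%.

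**Figure D1:**
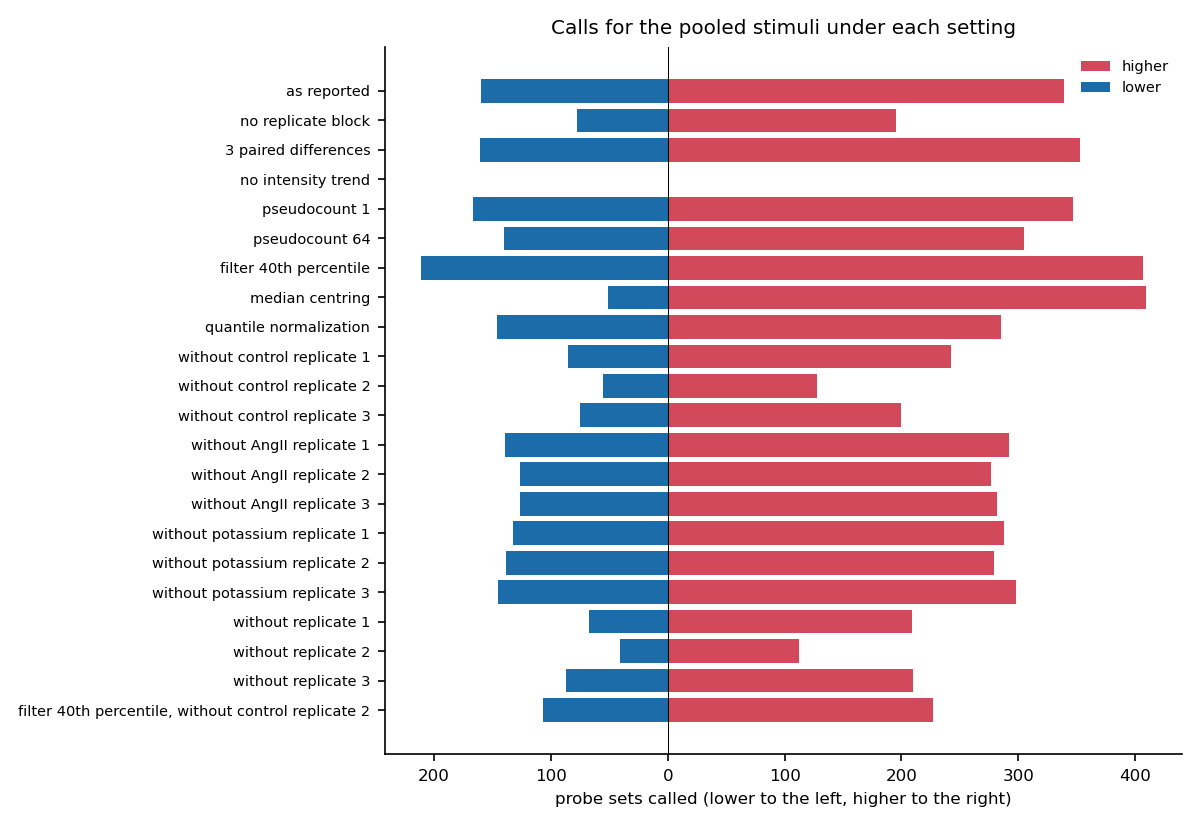
Number of probe sets called for the pooled stimuli against control under each setting, with increases to the right and decreases to the left of 0. The largest drops come without control replicate 2 (128 higher and 55 lower) and without preparation 2 (112 and 41), and no bar is drawn without an intensity trend because nothing was called there.

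The transcripts that moved most alike under both stimuli were taken as the calls over 1.5-fold whose 95% interval of Ang II minus potassium stayed closest to 0, so these intervals are a description. Among the 6 increases taken, Giot1, a zinc-finger repressor of transcription first known from the gonadotropin-stimulated ovary, had the largest pooled change. Its signal was 2237, 1563 and 1792 in control replicates 1, 2 and 3, 7161, 8597 and 6833 with Ang II, and 8968, 7847 and 7429 with potassium. Every stimulated array lay far above every control, and the stimulated groups overlapped each other. The pooled rise was 4.19-fold (log2 2.07 ± 0.09, SE, adjusted p = 4.0e-08), and Ang II minus potassium was -0.10 with a 95% interval from -0.33 to 0.12. Slc25a25, a calcium-regulated ATP-Mg/phosphate carrier of the inner mitochondrial membrane, had signals of 1649.8, 1521 and 1885 in the controls, 2811, 2449 and 2794 with Ang II, and 2547, 2572 and 2819 with potassium. The groups with stimulus did not overlap the controls, and the rise of 0.66 ± 0.06 (adjusted p = 2.7e-05) was split evenly, with a difference between the stimuli of 0.02 (interval -0.14 to 0.18). Nr4a1, the orphan nuclear receptor NUR77, had signals of 6084, 4906 and 8507 in the controls, 10119, 10724 and 12499.6 with Ang II, and 11968, 10533 and 11218 with potassium. All 6 stimulated values were above the highest control, with a pooled rise of 0.81 ± 0.10 (adjusted p = 2.0e-04) and a difference of -0.02 (interval -0.26 to 0.22).

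The remaining increases of this kind were Fam110c (0.86 ± 0.06), Tcim (0.68 ± 0.06), a regulator of Wnt signalling, and the ubiquitin ligase gene Arih1 (0.87 ± 0.07), all called with and without control replicate 2. Among the 4 decreases taken, the interval of Zbtb39 (-0.19 to 0.36) stayed closest to 0, and the largest pooled change was that of Micall2, which encodes a Rab effector of cell junctions. Micall2 had signals of 356, 474 and 319 in the controls, 168, 193 and 131 with Ang II, and 145, 163 and 176 with potassium. The stimulated arrays were all below the controls, and the pooled fall was 2.22-fold (-1.15 ± 0.18, adjusted p = 0.0023) with a difference of 0.01 (interval -0.42 to 0.45). Zbtb39 (-0.65 ± 0.11), Vgll4 (-0.64 ± 0.10), a cofactor of TEAD transcription factors, and Rflnb (-0.67 ± 0.16), which encodes a filamin-binding protein, followed. Zbtb39 and Rflnb were each called at 1 of 2 probe sets. Without control replicate 2 only Vgll4 of these 4 decreases was called (adjusted p = 0.039), and the adjusted p of Micall2, Zbtb39 and Rflnb was 0.074, 0.066 and 0.21.

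**Figure D2:**
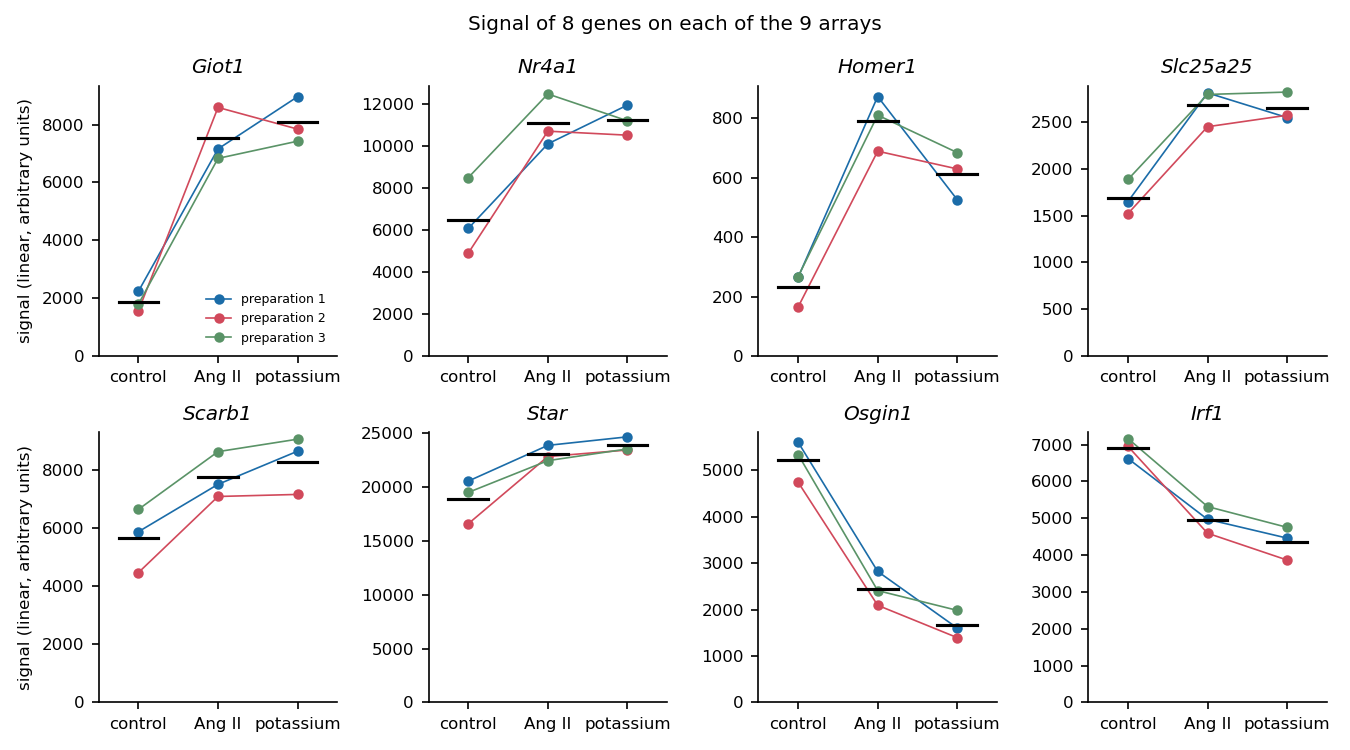
Linear signal of 8 genes on each of the 9 arrays, with points joined by cell preparation and a black bar at the mean of each group of 3. Giot1, Nr4a1, Homer1, Slc25a25 and Star sit above the controls on all 6 stimulated arrays, Scarb1 does so as well, and Osgin1 and Irf1 sit below them.

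Promoter sequence is shown for examples of the members that rose under both stimuli, because CREB-family factors bind a known DNA element, the cyclic AMP response element. The sequences are the 250 bases before the annotated start in RefSeq, rat assembly GRCr8, 5′ to 3′ on the strand of the gene. They lie at chr7:10886966-10887215 on the minus strand for Giot1, chr3:36116582-36116831 on the minus strand for Slc25a25, chr17:58985240-58985489 on the plus strand for an internal start of Crem, chr7:134259888-134260137 on the plus strand for Nr4a1, chr10:17184603-17184852 on the plus strand for Dusp1, chr20:9958647-9958896 on the minus strand for Sik1, chr2:26278762-26279011 on the plus strand for Homer1 and chr19:64393651-64393900 on the plus strand for Osgin1, the leading decrease, shown beside them. Capitals mark the element core TGACG on either strand, so that it reads CGTCA where it lies on the other one, and the full palindrome TGACGTCA holds 2 overlapping cores.
Giot1: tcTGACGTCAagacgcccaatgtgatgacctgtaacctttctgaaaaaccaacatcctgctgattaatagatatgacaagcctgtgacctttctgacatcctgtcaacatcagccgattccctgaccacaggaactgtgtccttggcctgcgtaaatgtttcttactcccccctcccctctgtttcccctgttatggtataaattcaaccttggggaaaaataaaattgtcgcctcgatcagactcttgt
Slc25a25: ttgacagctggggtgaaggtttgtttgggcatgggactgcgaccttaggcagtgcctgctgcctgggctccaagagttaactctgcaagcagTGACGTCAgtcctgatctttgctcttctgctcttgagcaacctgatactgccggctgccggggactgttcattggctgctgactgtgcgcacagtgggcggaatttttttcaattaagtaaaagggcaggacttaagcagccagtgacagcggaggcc
Crem: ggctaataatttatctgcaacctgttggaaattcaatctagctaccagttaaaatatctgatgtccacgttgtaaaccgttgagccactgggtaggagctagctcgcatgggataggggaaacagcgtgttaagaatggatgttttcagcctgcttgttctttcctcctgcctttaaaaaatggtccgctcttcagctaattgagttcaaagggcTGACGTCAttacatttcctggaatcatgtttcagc
Nr4a1: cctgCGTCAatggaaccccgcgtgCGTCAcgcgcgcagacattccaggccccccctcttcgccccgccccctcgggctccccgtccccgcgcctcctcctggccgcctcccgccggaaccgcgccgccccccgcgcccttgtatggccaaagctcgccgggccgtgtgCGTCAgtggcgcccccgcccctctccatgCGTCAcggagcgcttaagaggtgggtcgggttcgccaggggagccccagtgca
Dusp1: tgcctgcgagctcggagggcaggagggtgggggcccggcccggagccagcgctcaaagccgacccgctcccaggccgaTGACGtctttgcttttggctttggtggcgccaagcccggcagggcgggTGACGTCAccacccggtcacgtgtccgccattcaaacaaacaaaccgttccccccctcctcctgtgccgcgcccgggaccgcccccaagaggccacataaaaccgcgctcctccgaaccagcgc
Sik1: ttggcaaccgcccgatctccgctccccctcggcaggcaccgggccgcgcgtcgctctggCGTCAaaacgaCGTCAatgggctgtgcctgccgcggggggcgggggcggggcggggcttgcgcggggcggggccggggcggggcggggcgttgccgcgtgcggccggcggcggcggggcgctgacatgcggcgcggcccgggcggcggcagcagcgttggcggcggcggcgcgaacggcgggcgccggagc
Homer1: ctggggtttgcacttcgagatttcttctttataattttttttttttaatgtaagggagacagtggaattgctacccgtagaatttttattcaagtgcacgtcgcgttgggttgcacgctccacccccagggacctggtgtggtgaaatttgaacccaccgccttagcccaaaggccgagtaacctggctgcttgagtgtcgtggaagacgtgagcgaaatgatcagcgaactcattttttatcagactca
Osgin1: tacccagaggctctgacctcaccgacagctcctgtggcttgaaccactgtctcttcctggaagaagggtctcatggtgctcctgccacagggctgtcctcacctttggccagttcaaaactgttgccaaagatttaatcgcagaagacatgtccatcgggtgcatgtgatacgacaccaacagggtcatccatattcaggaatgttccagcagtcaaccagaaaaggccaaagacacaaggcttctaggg

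The full palindrome was found in Giot1, beginning 248 bases before the start, in Slc25a25 at 158, in Crem at 35 and in Dusp1 at 124. The promoter of Nr4a1 held 4 cores and no palindrome, that of Sik1 held 2 cores, and those of Homer1 and Osgin1 held neither. Crem, which uses an internal promoter for the inducible repressor ICER, held a palindrome at another internal start as well, 56 bases before it, and another start of Crem held 2 cores and no palindrome. Of 3 other risen genes searched and not printed, Rgs2 and Ypel4 held 1 core each and Ptgs2 none. Over all 33469 rat promoters of the same length in the table, 1.59% held the palindrome and 18.2% a core, palindromes included. Giot1 also held AAAGGTCA, the octamer bound by NR4A receptors, on the other strand 166 bases before its start, an octamer present on either strand of 1.24% of promoters. Only 79.3% of the genes with a higher call had a promoter in the table, so no share over the called genes is given. These are matches of letters in 1 window, shown as a description of the members.

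CREB and calcium target genes were the list with the most increases. Lists and members were chosen with earlier results of these data known, so the counts are a description. Of 30 measured members 13 rose, none fell (also none lower at an unadjusted p below 0.05) and 17 did not pass the test, and the median log2 fold change was 0.35, against -0.06 over all probe sets. Over 1 probe set for each of 14217 genes, 1.42% rose and 0.774% fell (2.19% in all). Without control replicate 2, 12 of the 30 rose. Sik1, a salt-inducible kinase that restrains CREB coactivators, had signals of 520.1, 414 and 565 in the controls, 966, 1151 and 859 with Ang II, and 2114, 1428 and 1742 with potassium. Its groups did not overlap, controls being lowest and potassium highest, and it rose 2.59-fold (1.37 ± 0.12, adjusted p = 1.4e-05) with both of its probe sets called. Crem, the source of an inducible cyclic AMP early repressor, was called at 5 of its 6 probe sets, by 0.57 ± 0.08 at the brightest and by 1.01 ± 0.08 at the largest change. Ptgs2, the inducible cyclooxygenase, rose 1.99-fold (0.99 ± 0.08), Gem, a GTPase that inhibits voltage-gated calcium channels, by 0.67 ± 0.08, and Bdnf, a neurotrophin, by 1.20 ± 0.11. Bdnf was called at 1 of its 2 probe sets. There it rose by 0.75 with Ang II and 1.66 with potassium, which differed in limma's test (adjusted p = 7.0e-04).

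In this list 8 of the 30 members differed between the stimuli, and in each potassium lay above Ang II, beside 3.25% of 14217 genes that differed in either direction. Rgs2, a brake on Gq-coupled receptors, had signals of 4649.5, 3729.8 and 4682 in the controls, 6134, 5108 and 6378 with Ang II, and 14519, 13425 and 13230.1 with potassium. Ang II arrays were all above the controls, and potassium arrays were all above both. The pooled rise of 1.05 ± 0.07 therefore averages 0.43 ± 0.08 for Ang II and 1.66 ± 0.08 for potassium, which use the same controls. Homer1, a scaffold of glutamate receptors and calcium channels with an activity-induced short form, is represented in the list by its brightest probe set, which was not called (0.31 ± 0.09, adjusted p = 0.10). Another of its 5 probe sets read 265, 165 and 267 in the controls, 874, 689.8 and 811 with Ang II, and 526, 630.1 and 685 with potassium. There the stimulated arrays were all above the controls, and the pooled rise was 2.92-fold (1.54 ± 0.13, adjusted p = 9.5e-06).

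Immediate early transcription factors moved in both directions. Of 37 measured, 10 rose and 3 fell, beside 1.42% and 0.774% of all genes, and 24 did not pass the test. The median was 0.20, and without control replicate 2 the counts of increases and decreases were 7 and 2. All members of the NR4A family were called. Nr4a2, or NURR1, had signals of 1529, 1536 and 2343 in the controls, 2642, 3544 and 3099.8 with Ang II, and 7888, 6095 and 6624 with potassium at its brighter probe set. The groups did not overlap, and it rose 2.58-fold (1.37 ± 0.12), and 3.17-fold at the other probe set. Nr4a3 rose by 0.86 ± 0.08 and was called at all 3 of its probe sets. Junb, an AP-1 subunit (0.78 ± 0.07), Klf4 (0.76 ± 0.07), the bZIP repressor gene Nfil3 (0.81 ± 0.08) and Csrnp1 (0.70 ± 0.06) also rose.

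The decreases among these factors were Irf1, Klf10 and Fosl1. Irf1, an interferon-responsive activator, had signals of 6623, 6953 and 7165 in the controls, 4972, 4595 and 5319 with Ang II, and 4462, 3866 and 4755 with potassium. All stimulated arrays were below all controls, and the fall was 1.49-fold (-0.57 ± 0.06, adjusted p = 7.6e-05). Klf10 fell by 0.59 on the log2 scale (SE 0.08), more with Ang II (-0.89) than with potassium (-0.30). Fos (0.20 ± 0.06, adjusted p = 0.15) and Egr1 (0.09 ± 0.06, adjusted p = 0.57), early responders to growth signals, were not called at 2 h. Fos was bright already in the controls (mean 11411), and its lowest stimulated signal, 12604, lay just above its highest control, 12599. Compression at signals as high as those of Fos and Egr1 was not tested. Egr1 had signals of 15529, 13256 and 16308 in the controls, 20586, 18786 and 20368 with Ang II, and 12719, 12021 and 13358 with potassium, so the Ang II arrays lay above the controls and the potassium group overlapped the lowest of them. Its pooled value averaged opposite signs, 0.41 ± 0.07 with Ang II and -0.24 ± 0.07 with potassium, and Ang II minus potassium was 0.65 (adjusted p = 7.1e-05). In this list 10 members were higher with Ang II and 9 with potassium in the test between the stimuli. Over all genes 3.25% differed in either direction.

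The largest pooled increases were of genes outside the classical steroidogenic pathway. Ypel4, a member of the yippee family of zinc-binding proteins, had signals of 76.3, 26.0 and 76.5 in the controls, 230.4, 346 and 296 with Ang II, and 1341, 1086 and 1276 with potassium. The groups were fully separated, and the pooled rise of 8.65-fold (3.11 ± 0.22, adjusted p = 1.3e-06) averaged 2.09 for Ang II and 4.13 for potassium. Nmu, the neuropeptide neuromedin U, had signals of 5.43, 97.0 and 18.8 in the controls, 183, 278 and 171 with Ang II, and 456, 205 and 287 with potassium. All stimulated arrays were above the controls, which were dim and spread widely, and the rise was 6.04-fold (2.60 ± 0.40, adjusted p = 0.0023).

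Dyrk3, a kinase that dissolves stress granules, rose 3.60-fold (1.85 ± 0.15), Tent5a, a poly(A) polymerase, 3.17-fold (1.66 ± 0.08), and Sprr1a, a small proline-rich protein, 3.18-fold (1.67 ± 0.18). Irs2, an adaptor of the insulin receptor, rose 2.65-fold (1.41 ± 0.07), and the somatostatin receptor gene Sstr1 3.02-fold (1.60 ± 0.31) from dim control signals of 16.9, 87.3 and 51.5. Vom2r53, a vomeronasal receptor gene, rose 2.65-fold (1.41 ± 0.27), and its call ended without control replicate 2 (adjusted p = 0.13). Tent5a and Sstr1 were each called at 1 of 3 probe sets. Of the 14 largest increases 13 were called without that array, and 9 differed between the stimuli. Of the list of adrenal development and Wnt signalling 4 of 21 rose, beside 1.42% of all genes, and none fell (median 0.06). At an unadjusted p below 0.05, 2 were lower. The members that rose were the homeobox gene Hhex (1.42 ± 0.08), the odd-skipped factor gene Osr2 (1.28 ± 0.08), the tendon factor gene Scx (0.93 ± 0.10) and the coactivator gene Cited2 (0.32 ± 0.06), the last not called without control replicate 2 (adjusted p = 0.13).

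The leading decrease was that of Osgin1, an oxidative stress-induced growth inhibitor. It had signals of 5606, 4745 and 5341 in the controls, 2823, 2093 and 2409.6 with Ang II, and 1602, 1396 and 1984 with potassium. The groups did not overlap, with potassium lowest, and the fall was 2.60-fold (-1.38 ± 0.08, adjusted p = 1.7e-07). Sema4b, a semaphorin, had signals of 2275, 2837 and 2398 in the controls, 1905, 2406 and 2123 with Ang II, and 714, 909 and 820.5 with potassium. Each Ang II tube lay below the control of its own preparation, although the Ang II arrays overlapped the controls as a group. The potassium arrays lay below all controls. The pooled value of -0.91 ± 0.06 averaged -0.22 ± 0.07 for Ang II and -1.60 ± 0.07 for potassium. Slc16a9, a monocarboxylate transporter (-1.26 ± 0.24), the death receptor gene Fas (-1.01 ± 0.15), the ribosome biogenesis pseudogene Rrs1-ps9 (-0.97 ± 0.19), which may share signal with its parent gene, and the mitochondrial helicase gene Ddx28 (-0.92 ± 0.18) also fell. Their calls ended without control replicate 2, with adjusted p-values of 0.19, 0.066, 0.15 and 0.17. Fas was called at 1 of 3 probe sets and Ddx28 at 1 of 2. Bles03 (-0.91 ± 0.07) and Ranbp6 (-0.81 ± 0.13), an importin-like gene, were called with and without it. Tpm1, a tropomyosin, was called at 1 of its 7 probe sets (-0.89 ± 0.12), while the brightest had a log2 fold change of 0.07 ± 0.06.

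Of 17 measured genes of steroid hormone synthesis 3 rose (beside 1.42% of all genes), none fell (also none lower at an unadjusted p below 0.05) and 14 did not pass the test, and the median was -0.00. Without control replicate 2, 1 of them rose. Scarb1, the scavenger receptor for cholesterol carried by high-density lipoprotein, had signals of 5886, 4477 and 6657 in the controls, 7519, 7101 and 8647 with Ang II, and 8662, 7171 and 9077 with potassium. The stimulated arrays were all above the highest control, the rise was 1.43-fold (0.51 ± 0.06, adjusted p = 3.8e-04), and it was called at both of its probe sets. Star, which carries cholesterol to the inner mitochondrial membrane, had signals of 20542, 16584 and 19492 in the controls, 22441 to 23859 with Ang II and 23429 to 24650.0 with potassium. The stimulated arrays lay above the controls by 1.25-fold (0.32 ± 0.06, adjusted p = 0.020), but the lowest control was replicate 2, and without it the value was 0.24 (adjusted p = 0.17). The call of Star ended in 11 of 21 alternative settings, and a second probe set gave 0.25 ± 0.07 (adjusted p = 0.094). Mrap, which escorts the ACTH receptor to the cell surface, rose by 0.39 ± 0.07, and its call ended without control replicate 2 (adjusted p = 0.16).

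The measured enzymes that convert cholesterol to corticosteroids were not called. Cyp11b2, which encodes aldosterone synthase, Hsd3b2 and Fdxr were not analysed here, so these values do not cover the last step to aldosterone. The pooled log2 fold changes were -0.03 ± 0.06 for Cyp11a1, which cleaves the cholesterol side chain, -0.01 ± 0.07 for Hsd3b1, -0.06 ± 0.06 for the steroid hydroxylase gene Cyp21a1 and 0.19 ± 0.10 for Cyp11b1, which forms corticosterone. Without control replicate 2 the value of Cyp11b1 was -0.01, and its differences in preparations 1, 2 and 3 were -0.06, 0.58 and 0.04. The regulators of these genes, Nr5a1, or SF-1 (0.05 ± 0.06), and Nr0b1, or DAX-1 (-0.00 ± 0.07), were not called either. Control signals of 24712 for Cyp11a1 and 25199 for Hsd3b1 lie high in the range of the arrays, whose highest signals were 33568 to 42803, and compression there was not tested. In cholesterol synthesis and uptake 2 of 22 genes rose, beside 1.42% of all genes, and none fell (median 0.08). At an unadjusted p below 0.05 the counts were 7 and 0. Idi1, which isomerises isopentenyl diphosphate, rose by 0.55 ± 0.06, and Insig1, the sterol sensor that retains SREBP, by 0.34 ± 0.06, the latter not called without control replicate 2 (adjusted p = 0.083).

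The lists of genes that receive and carry the stimuli stand beside 2.19% called over all genes. None of 32 receptor, calcium and kinase signalling genes passed limma's test (median 0.03), 1 higher and 5 lower having an unadjusted p below 0.05, and the angiotensin receptor genes Agtr1a and Agtr1b had values of 0.12 ± 0.08 and 0.06 ± 0.07. None of 23 cyclic nucleotide enzymes was called by limma (median -0.06), and 1 was lower at an unadjusted p below 0.05. Of 30 genes of potassium, calcium and sodium transport 1 rose (median -0.02), the plasma membrane calcium pump gene Atp2b1 (0.32 ± 0.06), and its call ended without control replicate 2 (adjusted p = 0.17). Atp2b1 was called at 1 of 3 probe sets. Of 32 feedback regulators acting on MAP kinases or G proteins 6 rose and 1 fell (median 0.12), and 4 and 1 were called without control replicate 2. The MAP kinase phosphatase gene Dusp14 rose by 0.69 ± 0.08, Cish, a cytokine signalling inhibitor, by 0.59 ± 0.08 and Dusp1 by 0.29 ± 0.06 at its brighter probe set, a call that ended without that array (adjusted p = 0.24), and by 0.89 ± 0.08 at the other, while Socs5 fell by 0.49 (SE 0.06). Cish was called at 1 of 2 probe sets.

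The counts of this paragraph stand beside 1.42% higher and 0.774% lower of 14217 genes. Of 35 genes for growth factors, peptides and proteolysis 8 rose and none fell (median 0.11, none lower at an unadjusted p below 0.05), and 5 rose without control replicate 2. Besides Nmu they included Vegfa, the endothelial growth factor (0.41 ± 0.06), Bmp2 (0.33 ± 0.06), the stromelysin gene Mmp3 (0.81 ± 0.13) and the urokinase receptor gene Plaur (0.34 ± 0.08). Among 26 genes that respond to amino acid shortage or oxidative stress 2 rose, Srxn1 and Gadd45a, and 5 fell (median -0.08), against Srxn1 as the 1 increase and Osgin1 and Chac1 as the 2 decreases without control replicate 2. The members that fell were Osgin1 and 4 genes linked to amino acid supply and its stress response, Trib3 (-0.59 ± 0.10), Psat1 (-0.51 ± 0.08), Chac1 (-0.48 ± 0.07) and Asns (-0.37 ± 0.08). All 4 were lower with potassium than with Ang II. In the list 12 members differed between the stimuli, each with Ang II above potassium, beside 3.25% of all genes in either direction. Of 28 cytokine, chemokine and adhesion genes 2 fell and none rose (median -0.03, none higher at an unadjusted p below 0.05), Irf1 and, at 1 of 2 probe sets, Tnf (-0.47 ± 0.06).

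Of 23 heat shock or chaperone genes 3 rose (median 0.07), and 2 were lower at an unadjusted p below 0.05. The 3 were the co-chaperone genes Bag3 (0.52 ± 0.06) and Dnajb4 (0.31 ± 0.06) and the crystallin gene Cryab (0.31 ± 0.06), and only Bag3 was called without control replicate 2. Of 17 circadian clock genes 2 rose, Nfil3 and the nuclear receptor gene Rora (0.62 ± 0.10), and 1 fell, the repressor gene Bhlhe41 (-0.54 ± 0.11), with a median of -0.17 that was 0.01 when all probe sets of a gene were averaged, and the calls of Rora and Bhlhe41 ended without that array (adjusted p = 0.11 and 0.19). Rora was called at 1 of 2 probe sets. None of 28 cell cycle genes was called by limma (median 0.03), 4 higher and 1 lower having an unadjusted p below 0.05. Among zona glomerulosa markers 1 of 9 rose, Nr4a2, and among zona fasciculata markers 1 of 4, Mrap. The latter list counts Cyp17a1, which was near background. Over all lists 57 genes were called, against 35 without control replicate 2 and 36 and 32 without preparations 1 and 2. The counts of this paragraph stand beside 1.42% higher and 0.774% lower of 14217 genes (2.19% in all). In a short list 1 call says little about the list. List medians within the shift that centring gives all probe sets have no settled direction.

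**Figure D3:**
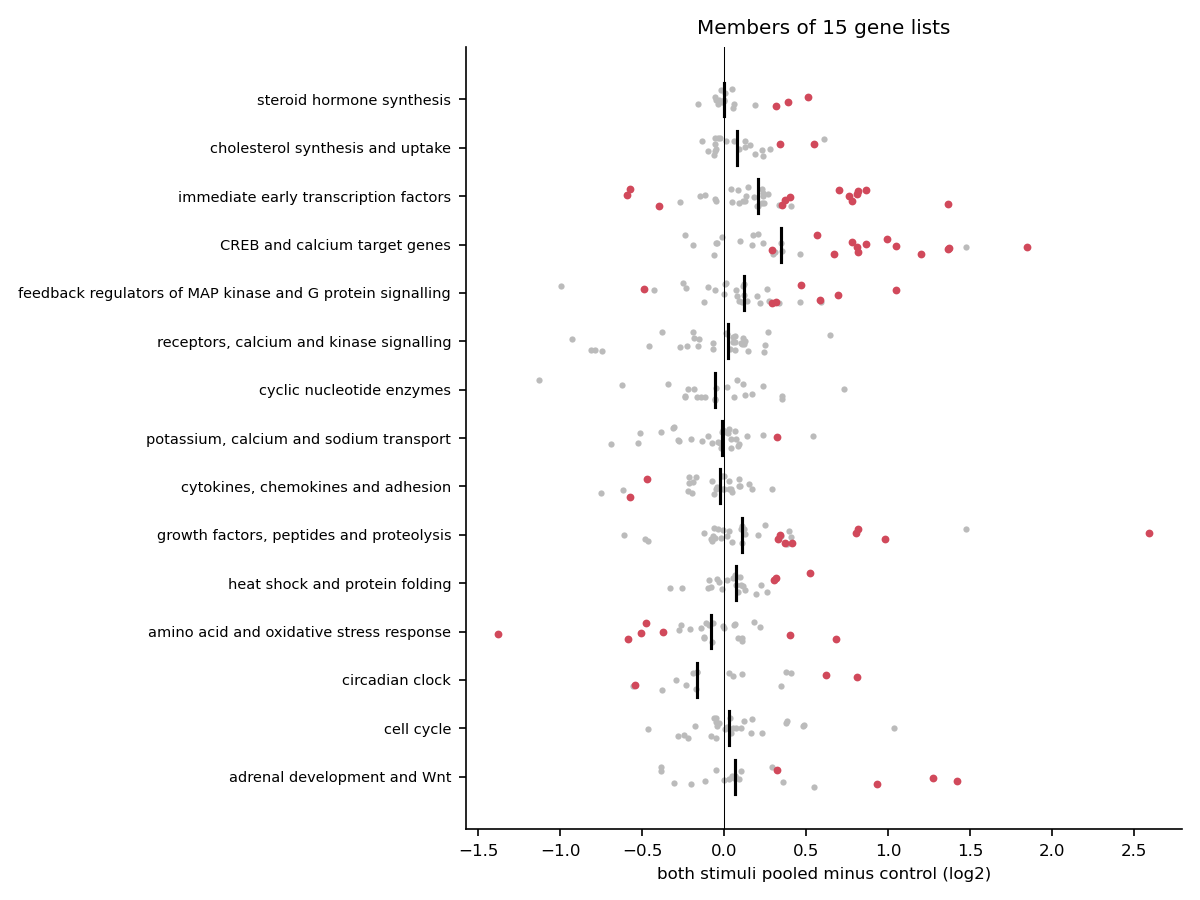
Log2 fold change of the pooled stimuli against control for each measured member of 15 gene lists, 1 probe set per gene, with red points for called members, grey for the rest and a black bar at the list median. CREB and calcium target genes have the highest median (0.35) and 13 red points, all above 0, while steroid hormone synthesis has 3 and a median of -0.00.

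A pooled change can come from equal or unequal effects, and the difference between Ang II and potassium, which uses no control array, separates these cases. Of the 499 called probe sets 185 differed between the stimuli (37.1%), against 2.37% of all probe sets (1.52% with Ang II above and 0.847% with potassium above). Among the brighter probe sets 3.90% differed. For 263 of the 499 (52.7%) the 95% interval of the difference lay within 1.5-fold either way, against 35.1% of all probe sets and 58.6% of the brighter ones. A difference was called as well for 28 of these 263, and 79 calls met neither condition. Without preparations 1 and 2 the number that differed was 103 and 101. Among the 185 that differed, 94 increases were larger with potassium and 44 with Ang II, while 44 decreases were deeper with potassium and 3 with Ang II. Of all 339 increases the estimate was larger with potassium in 221, and of all 160 decreases it was lower with potassium in 122. Over all probe sets potassium lay above Ang II in 51.1%. The median log2 fold change of the increases was 0.45 with Ang II and 0.57 with potassium, and of the decreases -0.41 and -0.68, both measured against the same controls. Among the 61 calls over 2-fold, 28 differed between the stimuli and 4 lay within 1.5-fold.

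For some calls the pooled value describes neither stimulus. Of the 339 increases 12 had 1 stimulus below control, and of the 160 decreases 4 had 1 above it. Serpinb2, or plasminogen activator inhibitor 2, had signals of 146, 198 and 147 in the controls, 1170.1, 1037 and 1256 with Ang II, and 60.9, 123 and 96.1 with potassium. The Ang II arrays were far above and the potassium arrays below the controls, and the pooled 0.98 ± 0.17 averaged 2.71 and -0.75. Fosl1, the AP-1 subunit FRA1, had signals of 3689, 3216 and 3438 in the controls, 4764, 4709 and 4143 with Ang II, and 1279.7, 1561 and 1680.2 with potassium. It lay above the controls with Ang II and below with potassium, giving a pooled -0.40 ± 0.09. Scx had signals of 613, 722 and 841 in the controls, 725, 628 and 669.6 with Ang II, and 3322, 2434 and 2814 with potassium. Its Ang II arrays overlapped the controls, and its potassium arrays lay above both groups.

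The other genes with the widest splits were Fancc, of the Fanconi anaemia DNA repair complex (3.02 with Ang II, -0.26 with potassium, 1 of 3 probe sets called), Srxn1, which repairs oxidised peroxiredoxins (1.90 and 0.24), and Rab7b, an endosomal GTPase (-0.04 and -1.69, 1 of 2 probe sets called). On the potassium side were Iqub (0.19 and 2.06) and Ndufa5, a subunit of respiratory complex I (0.20 and 1.75), beside Ypel4 and Dyrk3. Without control replicate 2 the pooled calls of Serpinb2, Fancc, Rab7b, Fosl1 and Iqub ended, with adjusted p-values of 0.074, 0.13, 0.17, 0.11 and 0.11. Over all 133 named probe sets 71 were called, 48 of them also without that array.

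**Figure D4:**
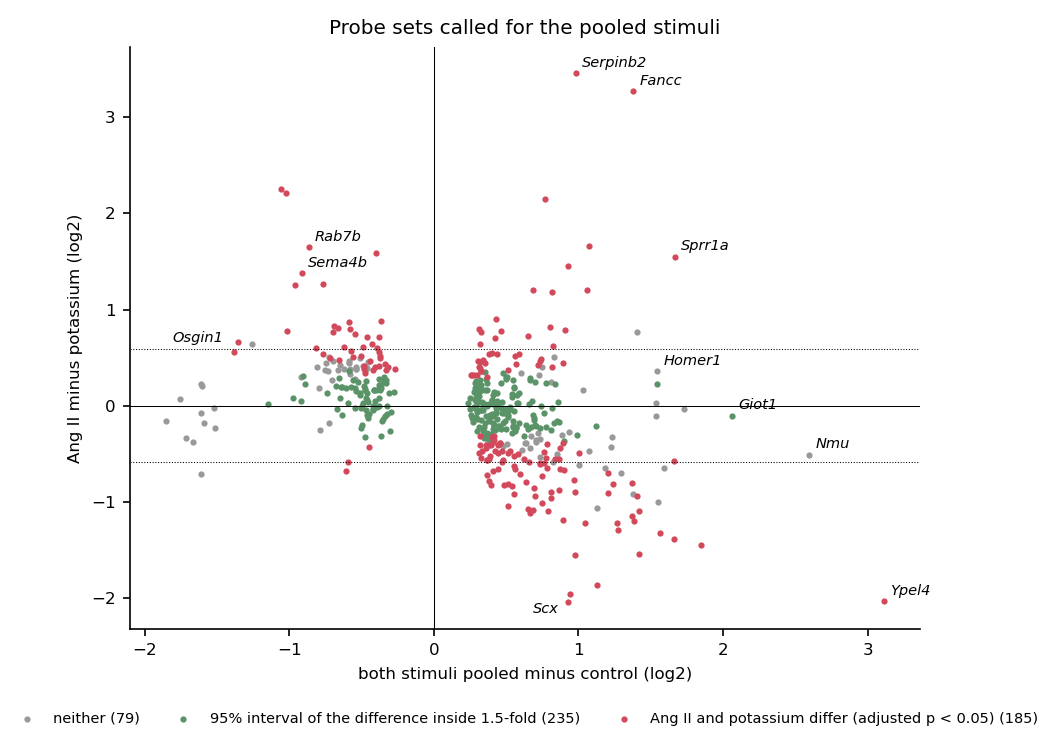
Each point is 1 of the 499 called probe sets, with the pooled log2 fold change on the horizontal axis and Ang II minus potassium on the vertical axis, and dotted lines at 1.5-fold. Red points differ between the stimuli (185), green points have a 95% interval inside 1.5-fold and no called difference, and grey points (79) meet neither condition. Giot1 lies near 0 at the right, and Ypel4 and Serpinb2 lie at the lower and upper ends.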

How the data were processed

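Total RNA of 9 tubes was hybridised to 1 array each. The authors deposited a linear intensity for each probe set, made with GCOS, the array maker's software, per the submitters' processing notes. For its version, its background method and the way probes were summarised, the entry is: not given in the sources used here. The trimmed mean of the deposited intensity was 500.17 to 500.19 throughout, which shows a common scaling, and no further scaling was added. Detection calls were not used, and the number of arrays limits the precision.

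Values were taken as log2(signal + 16), without a filter, for 31042 probe sets. Under R 4.3.3, limma 3.58.1 (eBayes with an intensity trend, after lmFit and contrasts.fit) fitted the 3 groups with the preparation as a fixed block on all 9 arrays (4 residual and 10.4 prior degrees of freedom). With this balanced design the pooled estimate equals the mean of the 3 paired differences. P-values were adjusted by Benjamini-Hochberg over all probe sets. The script was tested on simulated data. The pairing comes from the design text. Deviations from group means correlated at 0.03 to 0.11 for the 9 array pairs of 1 preparation and at -0.09 to 0.01 for the 18 other pairs.

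Symbols came from the platform annotation, updated through RefSeq genes of GRCr8: 20826 probe sets had 1 symbol (14217 genes), 436 several and 9780 none. Named genes were the 14 largest increases and 10 largest decreases among brighter called probe sets with all tubes on 1 side, the 6 increases and 4 decreases over 1.5-fold whose 95% interval of Ang II minus potassium stayed closest to 0 at its farther end, the 5 widest splits each way, a set of steroidogenic and early genes regardless of outcome, and from each list the 4 members, or fewer, with the smallest p. Lists use the probe set with the highest mean of a gene. Genes, lists and members were chosen with earlier results of these data known. Alternatives were the block, the paired differences, the trend, pseudocounts of 1 and 64, a filter at the 40th percentile, median centring, quantile normalization and leaving out tubes or preparations.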

Additional observations from a re-analysis of the deposited data

Results flagged for a closer look

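For 34 called probe sets named by the rule or the lists, limma's test of Ang II minus potassium found that the effects of the stimuli differed, and each is given here as that difference on the log2 scale. No explanation of these differences was tested. Potassium lay above Ang II for Scx (-2.05), Ypel4 (-2.04), Iqub (-1.87), Ndufa5 (-1.55), Dyrk3 (-1.45), Nr4a2 (-1.39 and, at the brighter probe set, -1.15), Osr2 (-1.30), Rgs2 (-1.23), Hhex (-1.10), Irs2 (-0.94), Sik1 (-0.81), Junb (-0.65), Tent5a (-0.58), Nr4a3 (-0.56), Rora (-0.55), Klf4 (-0.48) and Bag3 (-0.48). These are genes that rose in the pooled comparison.

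Ang II lay above potassium for Serpinb2 (3.46), Fancc (3.27), Srxn1 (1.66 and, at the brighter probe set, 1.20), Sprr1a (1.55), Mmp3 (1.18), Cish (0.54) and Cryab (0.47), which rose in the pooled comparison. It also lay above potassium for Rab7b (1.65), Fosl1 (1.59), Sema4b (1.38), Fas (0.77), Socs5 (0.61), Osgin1 (0.56), Psat1 (0.52) and Chac1 (0.34), which fell in the pooled comparison. Groups of 3 arrays are too small for a test of single outlying arrays.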

How the results depend on the processing

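Without the preparation as a replicate block 273 probe sets were called (195 higher, 78 lower). With the variance prior held constant over intensity none was called, higher or lower, named or listed (0), although 3482 had an unadjusted p below 0.05, and 6 of the 499 calls differed between the stimuli. Median centring left 51 decreases. When 1 tube or 1 preparation was left out, the count ranged from 153 to 443, that of increases from 112 to 298, of decreases from 41 to 145, of calls that differed between the stimuli from 101 to 190, of named calls from 46 to 71 and of list calls from 32 to 58. With the filter at the 40th percentile, and control replicate 2 left out as well, 334 were called (227 higher, 107 lower), an alternative chosen after seeing the data. The other settings (paired differences, pseudocounts, filter, quantile normalization) gave 431 to 618 calls, and no call of the 499 changed sign under any setting run. The block, the trend and the paired differences leave the estimate as it is, so no sign could change there. The filtered settings did not run the dim calls. The cause of the changes in counts was not tested. Averaging all probe sets of a gene turned the sign of the small medians of steroid synthesis (0.01), cholesterol (-0.00), receptor signalling (-0.03) and cell cycle (-0.02), and of the larger median of clock genes, from -0.17 to 0.01.

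With 3 preparations, 1 time and 1 dose of each stimulus, small changes could not be resolved, and dim probe sets gave 13 of the 499 calls.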

Other observations

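Further genes, chosen after their values were seen and tested only in the fit across all probe sets, moved with the pooled stimuli. Among genes of cyclic AMP signalling, 1 of 3 probe sets of Gnas, the stimulatory G protein subunit, rose by 0.74 ± 0.13 (SE), with 0.74 for Ang II and 0.74 for potassium. Prkacb, a catalytic subunit of protein kinase A, rose by 0.62 ± 0.10, and Akap12, a scaffold of that kinase, by 0.43 ± 0.08, each called at 1 probe set, of 3 and 2. The calls of all 3 ended without control replicate 2 (adjusted p = 0.12, 0.074 and 0.16). Slc25a30, a mitochondrial carrier, rose by 1.24 ± 0.06 and was called at both of its probe sets, and Alas1, the first enzyme of haem synthesis, rose by 0.74 ± 0.07. The calls of Slc25a30 and Alas1 remained without that array. Slc25a30 rose by 0.83 with Ang II and 1.64 with potassium, and Alas1 by 0.43 and 1.04. Both differed between the stimuli in limma's test (adjusted p = 9.6e-06 and 5.1e-04). The cannabinoid receptor gene Cnr1 rose by 0.56 ± 0.11 and the lysophosphatidic acid receptor gene Lpar1 by 0.33 ± 0.07, and neither was called without it (adjusted p = 0.15 and 0.18). Both were called at 1 of 2 probe sets.

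Besides Irf1, the interferon-related genes Irf2bp2 (-0.56 ± 0.08), Irf9 (-0.48 ± 0.09), Ifi30 (-0.47 ± 0.09) and Ifnar2 (-0.31 ± 0.07) fell, while Irf2 rose by 0.51 ± 0.11. Irf9 and Ifnar2 were called at 1 of 2 probe sets and Irf2 at 1 of 3. Only Irf2bp2 of these was called without control replicate 2 (adjusted p = 0.0051). The chemokine gene Cx3cl1 fell by 0.40 (SE 0.08), a call that ended without that array (adjusted p = 0.22), and Cxcl11, called without it (adjusted p = 0.0195), had values of -0.03 with Ang II and -0.74 with potassium. Eif4ebp1, which inhibits the cap-binding protein, fell by 0.72 (SE 0.08), and Eif4e, the gene of that protein, rose by 0.78 ± 0.12 at the probe set with the smallest p (2 of 3 called). Without control replicate 2 the former was called (adjusted p = 0.0093) and the latter was not (adjusted p = 0.078). Eif4ebp1 had values of -0.47 with Ang II and -0.97 with potassium, which differed in limma's test (adjusted p = 0.0076). Angptl4, an inhibitor of lipoprotein lipase, fell by 0.61 (SE 0.07), with -0.95 for Ang II and -0.26 for potassium. Whether these genes form groups was not tested.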
